A study of Mus musculus with 2 samples.

Results

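The genes described here build and serve the cilium of the photoreceptor: 53 listed genes of the connecting cilium, the BBSome, intraflagellar transport and the cargo machinery around them. They were found by name, as every non-control array probe whose RefSeq transcript belongs to a listed gene. All 53 were found, among 21367 genes named on the array. Expression was measured on 1-colour Agilent arrays in total RNA from mouse retina at postnatal day 12, with 1 array labelled Samd7 knockout and 1 array labelled wild type. The labels give no strain, sex, number of animals or extent of the deletion, and no treatment beyond the dissection. Both arrays lay on 1 slide. Samd7 encodes a sterile alpha motif protein of photoreceptors that works with Polycomb repressor proteins, and the study compared expression profiles with and without it.

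A photoreceptor's outer segment is a greatly enlarged primary cilium. All of its proteins are made in the inner segment and must pass through the connecting cilium, a narrow bridge that corresponds to the transition zone of other cilia. Intraflagellar transport carries material along the axoneme on trains made of complexes IFT-B and IFT-A, and the BBSome couples membrane proteins to these trains. Inherited defects in many of these genes cause retinal degeneration, alone or within syndromes such as Bardet-Biedl, Joubert and Meckel syndrome. At postnatal day 12 mouse outer segments are still growing.

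With 1 array in each group there is no spread between animals and no test, and every difference compares these 2 arrays. Values are log2 processed signal relative to the 75th percentile of the array, and differences are knockout-labelled minus wild-type-labelled. Probes with repeated spots scattered with signal: the pooled SD of the difference was 0.05 where the signal was at least 0, rising to 0.09 between -2 and 0, 0.19 between -4 and -2, and 0.38 for anything dimmer. The scanner software's own error model is wider, at 0.20 for the difference of most single spots. On the array, the level of a probe depends on its sequence, so a higher level is not read as more RNA than in another gene. Levels serve only to sort genes by brightness and to sum marker lists, where bright probes weigh most.

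Some facts of the whole series bear on the direction of each difference. The single named Samd7 probe read 6.47 on the knockout-labelled array and 4.68 on the wild-type-labelled array, the opposite order to what the labels name. Which exons were deleted and where the probe lies are not known here, so the probe may check nothing, and the arrays are called by their labels throughout. Rod markers were mostly lower on the knockout-labelled array, with 12 of 13 below 0, a median of -0.28 and a range between Gnat1 at -2.13 and Rom1 at 0.08. Cone markers had a median of 0.89, from Cnga3 at 2.91 to Thrb at -0.21, and 9 of 13 were above 0. All 26 rod and cone markers were above background on both arrays. In a bulk sample, fewer cells of a type and less RNA per cell cannot be told apart.

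All 53 members were well above background on both arrays, and none was 2-fold apart. Of all 15937 named genes above background on at least 1 array, 1.57% were at least 2-fold higher and 1.37% at least 2-fold lower on the knockout-labelled array. At 1.5-fold, Ift43, an IFT-A subunit, was lower and no other member passed in either direction, beside 3.20% of all genes lower and 2.96% higher. At 1.2-fold, a log2 difference of 0.263, 9 members were lower (17.0%, with 9.71% of all genes) and 2 were higher (3.77%, with 7.86% of all genes). The other 42 lay within 1.2-fold. The lower ones were Ift43, Tctn2, Tmem67, Bbs5, Tulp1, Kif3b, Ift74, Mak and Lca5, and the higher ones Tulp3 and Arl6. Lca5 at -0.264 stood just inside the threshold, and Bbs2 at -0.258 and Cc2d2a at -0.257 just outside it. With each array centred on its median instead, 5 members were lower (9.43%), a share close to the 8.38% of all genes. Other settings kept a wider gap. The lower share was 17.0% of members beside 9.03% of all genes with quantile normalization, and 13.2% beside 8.65% with loess normalization. It was 13.2% beside 4.91% with normexp background correction, and 15.1% beside 10.2% with means over probes. The higher members stayed at 2 under each of these settings.

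As a set, the members were shifted slightly downward. Their median difference was -0.08, with a lower quartile of -0.22 and an upper quartile of 0.03, against a median of -0.02 with quartiles of -0.11 and 0.06 over all genes above background. A difference below 0 was found in 37 of 53 members (69.8%) and in 57.7% of all genes. The members are mostly bright: 44 had a mean log2 signal of 0 or more, where 8728 of all genes lay. Among these brighter genes, a filter chosen after the data were seen, 34 of 44 members (77.3%) were below 0 beside 58.7% of all genes, and the same 9 members that were 1.2-fold lower made 20.5% beside 3.54% of all genes. The 2 members 1.2-fold higher stood beside 4.47% of these brighter genes. At 1.5-fold the brighter genes had 0.642% lower and 1.78% higher, and at 2-fold 0.218% lower and 0.928% higher.

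**Figure D1:**
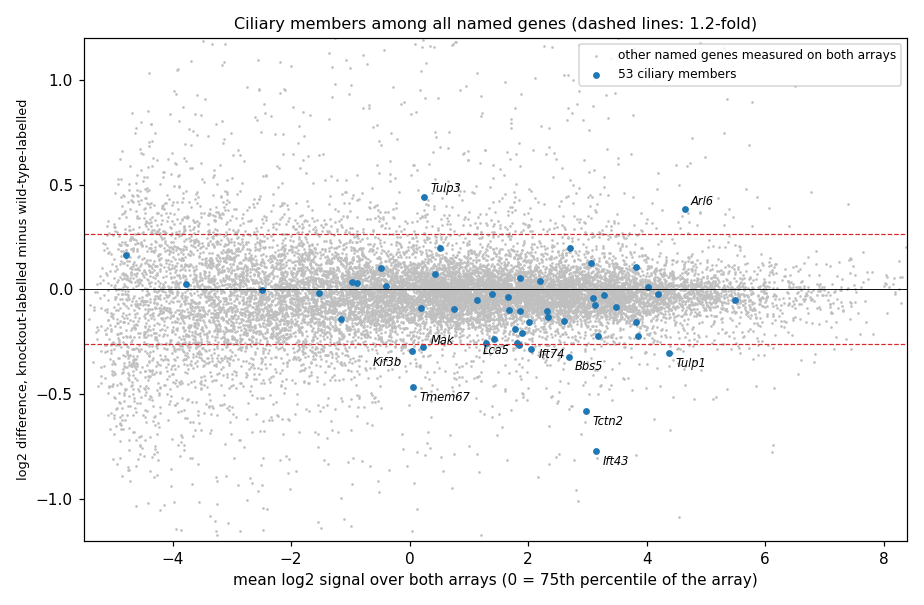
Log2 difference, knockout-labelled minus wild-type-labelled, against the mean log2 signal over both arrays, with 1 point per gene. The 53 members lie within 1 log2 unit of 0 and mostly on the brighter side, with Ift43 at -0.77 as the lowest and Tulp3 at 0.44 as the highest; other genes beyond the plotted range of either axis are not shown.

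The BBSome was split between lower, level and slightly higher subunits. Bbs5, one of its membrane-binding subunits, read 2.53 on the knockout-labelled array and 2.85 on the wild-type-labelled array, a difference of -0.32 or 1.25-fold lower. Its other probe gave -0.34, so both probes stood on the same side with nearly the same value. Bbs2, which forms part of the core on which the complex assembles, read 1.16 on the knockout-labelled array against 1.42 on the wild-type-labelled array. Bbs1, the subunit that recognises cargo and binds Arl6, was at -0.22 by its brightest probe and -0.21 by the other. Ttc8, also called BBS8, went the other way, at 2.81 against 2.61 on the wild-type-labelled array, a difference of 0.19. Bbs9 was at 0.11, Bbs4 at 0.01 and Bbs7 at -0.02, all within 1.1-fold. The 7 subunits had a median of -0.02, and 4 of them were below 0.

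The helpers of the BBSome held one of the members higher on the knockout-labelled array. Arl6, the small GTPase that recruits the BBSome to membranes, read 4.84 on the knockout-labelled array and 4.45 on the wild-type-labelled array. This is a difference of 0.38, or 1.30-fold higher, and the other probe gave 0.46 with readings of 4.19 and 3.74. Mkks, Bbs10 and Bbs12 are chaperonin-like proteins that help the BBSome to assemble. Mkks was the lowest of the 4 genes, with 2.27 on the knockout-labelled array and 2.40 on the wild-type-labelled array, and Bbs12 was at -0.10. Bbs10 was at 0.10 by its brightest probe and at 0.40 by a dimmer one, with readings of -1.10 and -1.49, so its probes share a side but not a size.

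Genes of the IFT-B train, which moves cargo toward the ciliary tip, were close to level. Of 11 genes, 10 lay within 1.2-fold, 8 were below 0 and the median was -0.03. Ift74, which with Ift81 binds tubulin, was the lowest, at 1.90 on the knockout-labelled array and 2.18 on the wild-type-labelled array, a difference of -0.28. A second Ift74 probe, assigned to another transcript of the gene, gave -0.73 with readings of -2.59 and -1.86. Ift81, its partner, was at -0.03. Ift57 was the highest of the train, at 3.12 on the knockout-labelled array and 2.99 on the wild-type-labelled array, a difference of 0.13.

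The remaining IFT-B genes differed by less than the scanner's error. Ift27, a small GTPase that helps the BBSome leave the cilium, was at -0.16, and Ift88, whose loss stunts outer segments in mice, was at -0.15. Ift22 was at -0.09, Ift172 at -0.05 and Ift20, which also works at the Golgi apparatus, at -0.03. Ift80 was at 0.04 and Ift52 at 0.06. Ift46 was at -0.02 by its brightest probe, while a dim probe with readings of -4.33 and -4.65 gave 0.32.

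The promoter of Ift57 is shown because it holds a pair of X-box matches, the motif bound by RFX factors that switch on many ciliary genes, while the gene itself was nearly level. The window is chr16:49699044-49699343 of GRCm38.p6 on the plus strand, from RefSeq, and runs from 250 bases before the gene's start to 50 after it. Capitals mark the matches.
Ift57: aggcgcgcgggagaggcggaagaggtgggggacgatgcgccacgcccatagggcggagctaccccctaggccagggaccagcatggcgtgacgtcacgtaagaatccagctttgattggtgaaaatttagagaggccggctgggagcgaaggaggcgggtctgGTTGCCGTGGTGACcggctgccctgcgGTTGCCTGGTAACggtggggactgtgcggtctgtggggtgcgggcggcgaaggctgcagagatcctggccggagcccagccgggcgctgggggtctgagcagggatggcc

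The IFT-A train, needed for the return from the tip and for the entry of some membrane proteins, held the largest difference among the members. Ift43 read 2.76 on the knockout-labelled array and 3.54 on the wild-type-labelled array. The difference of -0.77, or 1.71-fold lower, is 3.78 times the scanner's error for this probe, and Ift43 has only 1 probe here (A_55_P2023042). The other 5 IFT-A genes did not come near it. Wdr35 was at -0.19, Ttc21b at -0.16 (-0.09 by a dimmer probe) and Ift122 at -0.08 (-0.11 by its other probe). Ift140 was at 0.03 and Wdr19 at 0.17, but both were dim. Wdr19 read -4.71 on the knockout-labelled array and -4.87 on the wild-type-labelled array, a range in which repeated spots scatter by 0.38. The median of the 6 genes was -0.12.

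The promoter of Ift43 is given as that of the member with the largest difference. It spans chr12:86082311-86082610 of GRCm38.p6 on the plus strand, and none of the motifs searched was found in these letters.
Ift43: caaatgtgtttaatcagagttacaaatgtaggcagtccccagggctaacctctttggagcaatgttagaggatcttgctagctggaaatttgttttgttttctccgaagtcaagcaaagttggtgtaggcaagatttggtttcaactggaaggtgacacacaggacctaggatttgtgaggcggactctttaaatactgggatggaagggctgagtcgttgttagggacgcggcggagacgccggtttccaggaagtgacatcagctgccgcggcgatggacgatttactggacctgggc

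The kinesin-2 motors, which pull trains toward the tip, were all slightly lower, Kif3a and Kif17 by less than the scanner's error. Kif3b, a motor subunit of heterotrimeric kinesin-2, read -0.10 on the knockout-labelled array and 0.19 on the wild-type-labelled array, a difference of -0.29. Its dimmer probe gave -0.56, with readings of -2.91 and -2.34. Its partner Kif3a was at -0.08 (3.09 on the knockout-labelled array, 3.16 on the wild-type-labelled array), with -0.03 by its other probe. Kif17, a homodimeric motor of the same family, was at -0.14, and a second Kif17 probe was not well above background on either array.

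The MKS module of the transition zone, a membrane-linked gate at the base of the cilium, held 2 of the 3 lowest members. Tctn2, a tectonic protein of the gate, read 2.68 on the knockout-labelled array and 3.26 on the wild-type-labelled array. Its difference of -0.58 is 2.85 times the scanner's error and falls just short of 1.5-fold. Tmem67, also called meckelin, a membrane receptor-like protein, read -0.17 on the knockout-labelled array and 0.29 on the wild-type-labelled array, a difference of -0.47 or 1.38-fold lower. Each of these genes has 1 probe.

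Other MKS genes were lower by less or level. Cc2d2a, which organises the gate's membrane side, was at -0.26 with -0.09 by its other probe, and Mks1 was at -0.24. B9d1, a B9-domain partner of Mks1, was at -0.04 and Tctn1 at 0.03. Ahi1, or jouberin, was the highest of the module, at 0.47 on the knockout-labelled array and 0.40 on the wild-type-labelled array. Its probe is printed at 10 spots, which gave differences between -0.003 and 0.15 with a mean of 0.07 ± 0.05 (SD over 10 spots, which measure technical scatter only), and 9 of them were above 0. The median of the 7 genes was -0.24, and 5 were below 0.

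The promoter of Tctn2 is shown because it is the most different of the members whose window holds an X-box match. It spans chr5:124598499-124598798 of GRCm38.p6 on the plus strand, with the X-box match and a separate RFX core motif in capitals.
Tctn2: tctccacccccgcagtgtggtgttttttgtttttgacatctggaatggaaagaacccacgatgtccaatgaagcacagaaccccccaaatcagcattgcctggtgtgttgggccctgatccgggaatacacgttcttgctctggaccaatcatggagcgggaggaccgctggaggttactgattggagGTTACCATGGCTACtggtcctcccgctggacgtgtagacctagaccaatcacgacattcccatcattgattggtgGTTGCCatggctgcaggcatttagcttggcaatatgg

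**Figure D2:**
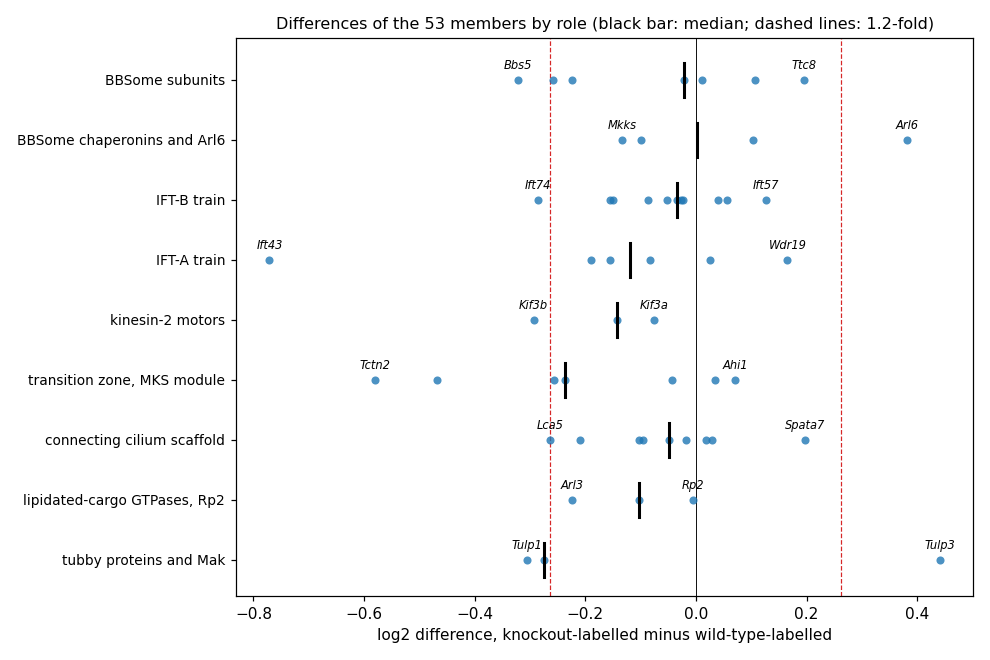
Log2 difference, knockout-labelled minus wild-type-labelled, of each of the 53 members, 1 point per gene, in 9 role groups from the BBSome at the top to the tubby proteins and Mak at the bottom. The lowest and highest gene of each group are named, and group medians run from -0.28 for the tubby proteins and Mak to 0.002 for the BBSome chaperonins and Arl6.

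Scaffold proteins of the connecting cilium, several of them causes of Leber congenital amaurosis in people, were mostly near level. Lca5, or lebercilin, a partner of the IFT machinery, read 1.71 on the knockout-labelled array and 1.98 on the wild-type-labelled array. Its 3 probes gave -0.26, -0.27 and -0.25, and so lay within 0.03 of each other. Nphp4 was at -0.21, with -0.23 by its other probe. Rpgr, mutated in X-linked retinitis pigmentosa, was at -0.10, and its other probes gave -0.14, -0.12 and 0.02. Its tether Rpgrip1, which is concentrated in the photoreceptor connecting cilium, was level by both probes, at -0.05 and -0.04. Cep290, the protein that links microtubules to the ciliary membrane, was at -0.10.

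The rest of the scaffold lay closer still to 0, with Spata7 apart. Sdccag8 was at -0.02, Iqcb1 at 0.02 and Rpgrip1l at 0.03. Spata7, which keeps Rpgr and Rpgrip1 in place along the photoreceptor connecting cilium, was the highest, with 0.61 on the knockout-labelled array and 0.41 on the wild-type-labelled array. Its difference of 0.20 is 0.97 times the scanner's error. The 9 genes had a median of -0.05.

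Genes of the lipidated-cargo cycle, in which Arl3 releases prenylated and myristoylated proteins inside the cilium, were at or below 0. Arl3 itself was the lowest, at 3.07 on the knockout-labelled array and 3.30 on the wild-type-labelled array, a difference of -0.22. Arl13b, which activates Arl3, was at -0.10, with -0.17 by its other probe. Rp2, which switches Arl3 off, was level, with -2.50 on the knockout-labelled array and -2.50 on the wild-type-labelled array.

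The tubby-family genes pointed in opposite directions. Tulp3, which with IFT-A brings G protein-coupled receptors into primary cilia, was the highest of all members, at 0.47 on the knockout-labelled array and 0.03 on the wild-type-labelled array. This is a difference of 0.44 or 1.36-fold higher, and 2.16 times the scanner's error. Tulp1, its photoreceptor relative, needed to move proteins to the outer segment, read 4.23 on the knockout-labelled array and 4.54 on the wild-type-labelled array, or 1.24-fold lower. Mak, a kinase that limits the length of the photoreceptor axoneme, read 0.09 on the knockout-labelled array and 0.37 on the wild-type-labelled array, a difference of -0.28. Each of the 3 genes has 1 probe.

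**Figure D3:**
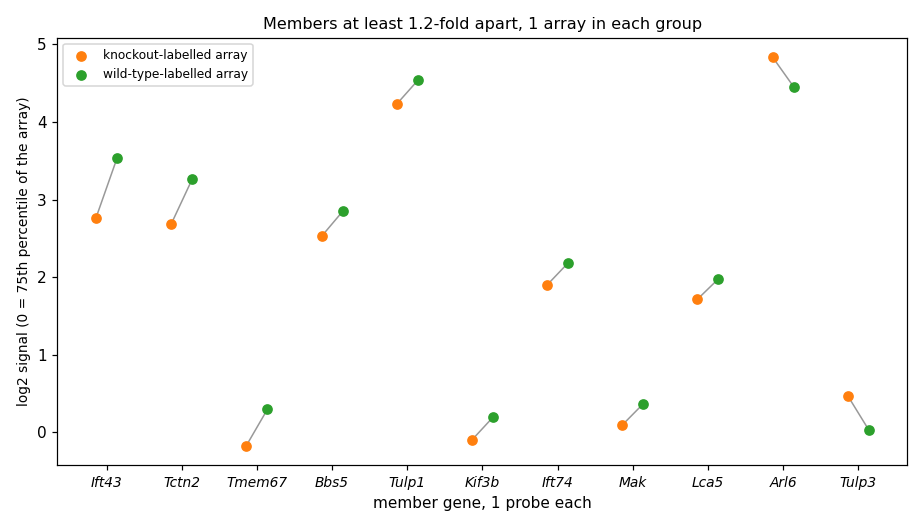
Log2 signal on the knockout-labelled array (left point) and the wild-type-labelled array (right point) for the 11 members at least 1.2-fold apart, 1 probe and 1 array each, from the lowest difference to the highest. The knockout-labelled point is the lower one for the first 9 genes and the higher one for Arl6 and Tulp3; heights of different genes are not comparable.

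How many members stand out depends on the multiple of the scanner's error taken as the cut-off. Against the scanner's error, 4 members differed by more than 2 error units. Of these, 3 were lower, namely Ift43, Tctn2 and Tmem67 (5.66% of members, with 3.32% of all genes), and Tulp3 was higher (1.89%, with 3.16% of all genes). Against 1 error unit, 15 members were lower (28.3%, with 11.9% of all genes) and 3 higher (5.66%, with 8.50% of all genes).

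Repeated probes gave a second view of the precision. Of the 53 members, 17 had at least 2 measured probes, and 14 of these (82.4%) had all probes on the same side of 0, as had 61.5% of the 4131 genes with 2 or more probes measured. The median range between probes of a member was 0.07, against 0.10 over those genes. The comparison was not matched for brightness: the members are mostly bright, and brighter probes scatter less. Ranges over 0.2 occurred in Ift74 (0.44), Ift46 (0.35), Bbs10 (0.29) and Kif3b (0.27), which is 23.5% of these members beside 25.4% of all such genes. The probes of Ift46, Bbs7 and Rpgr lay on both sides of 0. Tctn2, Tmem67, Ift43, Tulp1, Tulp3 and Mak have no second probe to set beside the first.

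**Figure D4:**
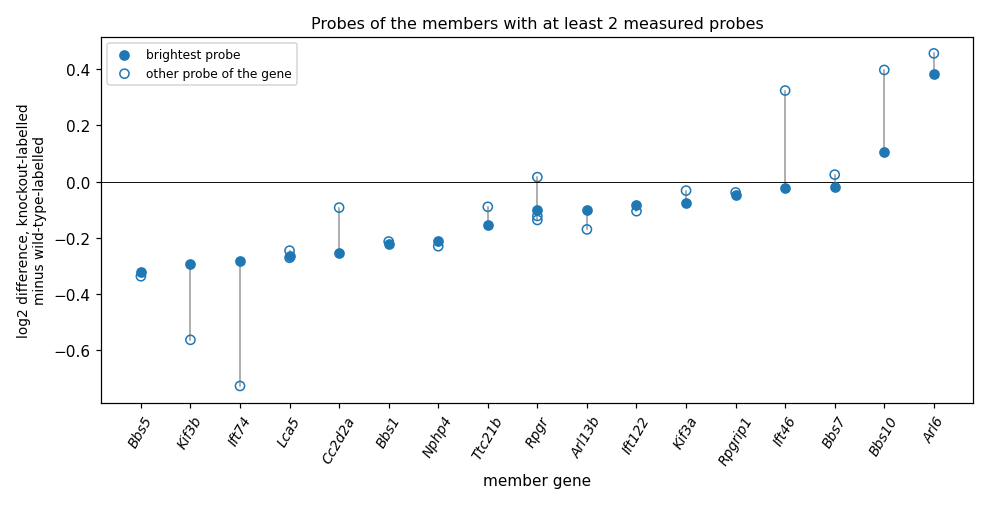
Log2 difference, knockout-labelled minus wild-type-labelled, of every measured probe of the 17 members with at least 2 probes, the brightest filled and the others open, joined by a line for each gene. Both Arl6 probes lie above 0, the 3 Lca5 probes lie between -0.27 and -0.25, and the dimmer probes of Ift74 and Kif3b lie below the brightest.

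RefSeq promoter windows of assembly GRCm38.p6 were found for 48 of the 53 members. RFX factors bind the X-box, searched here as GTNNCC followed after 0 to 3 bases by GGNNAC, which reads the same on both strands. It was present in 12 of 48 members (25.0%), against 817 of 17492 protein-coding genes (4.67%) and 3.86% of all windows in the table. The RFX core motif GTTGCC, on either strand, was present in 19 members (39.6%) and in 14.3% of protein-coding genes and 12.5% of all windows. Of its 21 places in the members, 8 lay inside an X-box match. The CRX and OTX motif TAATCC, a mark of photoreceptor genes, was found on either strand in 3 members, Bbs1, Mak and Rpgrip1 (6.25%), and in 7.56% of protein-coding genes and 7.06% of all windows.

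The X-box matches are printed because they are the ciliary promoter motif searched here and were present in 12 of the members' windows. Capitals mark the 6 bases of each arm, lower case the spacer, read in the direction of the gene.
Ahi1, chr10:20952568-20952581, plus strand: GTTACCtaGGCAAC
Bbs1, chr19:4906613-4906626, minus strand: GTTGCCaaGGCGAC
Bbs4, chr9:59353472-59353485, minus strand: GTCGCCcgGGAAAC
Bbs7, chr3:36613497-36613510, minus strand: GTTGCCttGGAAAC
Ift22, chr5:136908087-136908100, plus strand: GTTTCCtgGGCTAC
Ift22, chr5:136908117-136908130, plus strand: GTCGCCgtGGAAAC
Ift57, chr16:49699207-49699220, plus strand: GTTGCCgtGGTGAC
Ift57, chr16:49699234-49699246, plus strand: GTTGCCtGGTAAC
Lca5, chr9:83441145-83441159, minus strand: GTAACCaatGGGAAC
Mks1, chr11:87853191-87853204, plus strand: GTTGCCagGGGAAC
Nphp4, chr4:152477911-152477924, plus strand: GTCTCCtaGGTAAC
Tctn1, chr5:122264411-122264424, minus strand: GTTGCCcgGGCAAC
Tctn2, chr5:124598687-124598700, plus strand: GTTACCatGGCTAC
Wdr19, chr5:65199662-65199675, plus strand: GTCTCCtgGGTGAC

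Expression of members with and without these matches overlapped widely. The 12 members with an X-box match had a median difference of -0.05, from Tctn2 at -0.58 to Wdr19 at 0.17, and the 36 without had one of -0.10, from Ift43 at -0.77 to Tulp3 at 0.44. Those with the RFX core motif had a median of -0.14 and those without one of -0.05. Neither Arl6 nor Tulp3 had any of the motifs searched in the windows used. A match describes letters in the window and shows no binding.

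RFX and related ciliary transcription factors were mixed. Rfx3, an activator of ciliary genes, was at -0.05, Rfx1 at -0.16, Rfx5 at 0.02 and Rfx7 at 0.34 (-0.19 by its other probe). Rfx2 was above background on the knockout-labelled array only, at -4.24 against -5.39 on the wild-type-labelled array. Its difference of 1.15 (2.22-fold higher) uses that undetected reading and depends on the background correction. After normexp background correction the Rfx2 difference was 0.36. Foxj1, the master regulator of motile cilia, was at -0.71, with -1.74 on the knockout-labelled array and -1.03 on the wild-type-labelled array. Rfx4 was not well above background on either array.

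Other genes of the same machinery, 63 in all outside the 53, were also mostly slightly lower. Their median difference was -0.09 and 46 (73.0%) were below 0, beside 57.7% of all genes. At 1.2-fold, 13 were lower (20.6%, with 9.71% of all genes) and 2 higher (3.17%, with 7.86% of all genes). The lowest measured on both arrays were Myo7a, an actin motor mutated in Usher syndrome (-1.39), Wdr60, an intermediate chain of the retrograde dynein motor (-0.78), and Prom1, a protein of forming discs (-0.47, with -0.54 by its other probe). The highest were Unc119b, a carrier of myristoylated cargo (0.95), the ciliogenesis kinase Ttbk2 (0.27) and the ciliary kinase Cilk1 (0.21). Only Myo7a was 2-fold apart, at -1.74 on the knockout-labelled array and -0.35 on the wild-type-labelled array.

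Within these further genes, the 10 of the photoreceptor axoneme list were all below 0, beside 57.7% of all genes. Of these 10, Cdh23 was above background on the wild-type-labelled array only. The list, which also holds Usher complex genes and the disc protein Prom1, had a median of -0.31. Among the others, the 8 further BBSome and IFT genes had a median of -0.15, the 7 motor genes -0.10, the 12 basal body genes -0.04, the 13 transition zone and inversin genes -0.02, and the 13 cargo transport genes and kinases 0.01. Dync2h1, the heavy chain of the retrograde motor that drives IFT-A return, was at -0.23, and its light intermediate chain Dync2li1 at -0.09.

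Markers of other cells also differed between the arrays, some lists lower and some higher on the knockout-labelled array. Their part in the ciliary differences was not tested. Of 9 pigment epithelium markers 8 were above background and 7 of these were below 0, with a median of -0.42 and a range between Pmel at -0.81 and Best1 at 0.15. Their summed signal, in units of the 75th percentile, was 22.0 on the knockout-labelled array and 29.8 on the wild-type-labelled array, with Lrat not well above background. Of 14 motile cilium markers 11 were above background, 9 of them below 0, with a median of -0.53, from Cfap52 at -2.55 to Dnaic1 at 3.73, and with Dnah9 and Spag6 not well above background. The motile cilium sum was 9.22 on the knockout-labelled array and 5.89 on the wild-type-labelled array, an order set by Dnaic1 alone. Without it the sum was 2.27 on the knockout-labelled array and 5.37 on the wild-type-labelled array. Dividing-cell markers had a median of -0.34, from Kif11 at -1.72 to Plk1 at 0.23, with 7 of 9 below 0. Kif11 was dim, with -5.10 on the knockout-labelled array and -3.38 on the wild-type-labelled array. The summed dividing-cell signal was nearly level, at 2.39 on the knockout-labelled array and 2.53 on the wild-type-labelled array. Without its brightest gene, Plk1, that sum was 1.46 and 1.73 in the same order of arrays. Lens markers had a median of 1.55, from Bfsp2 at -0.15 to Crybb2 at 2.80, and a summed signal of 20.04 on the knockout-labelled array against 4.89 on the wild-type-labelled array. The summed rod signal was 1178 on the knockout-labelled array and 1476 on the wild-type-labelled array, and the summed cone signal 482 and 174 in the same order of arrays. Without its brightest gene, Gngt2, the cone sum was 210 and 124 in that order. The lens sum without Cryaa was 8.46 and 2.47, again in that order.

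Genes next to the most different members on the chromosome were also read, in the gene order of GRCm38.p6. Beside Ift43 on chromosome 12, Tgfb3 was at 0.01 and Gpatch2l at -0.10, while Esrrb, a nuclear receptor of rods that is the next gene after Gpatch2l, was at -1.09. Beside Tctn2 on chromosome 5, Gtf2h3 was at -0.04 and Atp6v0a2 at -0.03. Beside Tmem67 on chromosome 4, Pdp1 was at 0.02 and Rbm12b2 at -0.06. Beside Bbs5 on chromosome 2 both neighbours were further apart than Bbs5 itself, with Lrp2, an endocytic receptor, at 1.18 and Klhl41 at -0.89. Klhl41 was dim, with -4.71 on the knockout-labelled array and -3.82 on the wild-type-labelled array. Tead3 beside Tulp1 was at 0.36 and Sh3bgrl2 beside Lca5 at -0.35. Of the 17 measured immediate neighbours of the 10 members other than Arl6, these 4 were at least 1.2-fold apart and 13 were not. Over all genes above background, 9.71% were at least 1.2-fold lower and 7.86% at least 1.2-fold higher.

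Arl6 stood in a run of genes that were higher on the knockout-labelled array. On chromosome 16 the order is Gabrr3, Riox2, Crybg3, Arl6, Epha6. Gabrr3, a GABA receptor subunit, read 1.42 on the knockout-labelled array and -0.54 on the wild-type-labelled array, a difference of 1.96. Riox2, a ribosomal oxygenase, was at 1.45 (2.59 and 1.14), and Crybg3 at 0.86 (2.22 and 1.35), in the same order of arrays. Epha6, an ephrin receptor, was at 0.26, and the gene before Gabrr3, Olfr209, at -0.10. Arl13b, another member, lies 3 genes beyond Arl6 and was at -0.10.

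**Figure D5:**
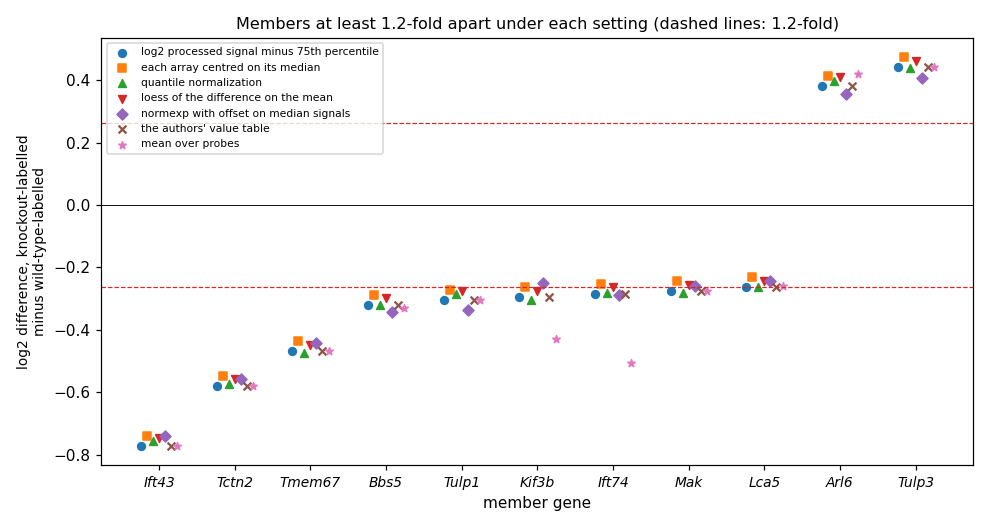
Log2 difference, knockout-labelled minus wild-type-labelled, of the 11 members at least 1.2-fold apart, under 7 ways of making the values, 1 marker shape for each. Ift43, Tctn2, Tmem67, Bbs5, Tulp1, Arl6 and Tulp3 lie outside the dashed 1.2-fold lines under every setting, whereas Kif3b, Ift74, Mak and Lca5 cross a line under at least 1.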

How the data were processed

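The authors deposited the scanner output of each array, whose background-subtracted intensity is on a linear scale; Agilent Feature Extraction 11.5.1.1 wrote it (protocol GE1_1105_Oct12, 1 colour, design built on mm9), per the file headers. The other columns used are 0 or 1 flags of the same software, per the file headers. The authors' value table holds the same intensity multiplied by 1 constant per array and served as an alternative. How that constant was set is unknown. Each array held 59305 non-control spots, of which 36143 (60.9%) were well above background on the knockout-labelled array and 35745 (60.3%) on the wild-type-labelled array. None was saturated, and the number of arrays limits the precision.

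Each processed signal was taken to log2 and the 75th percentile over its array's non-control spots subtracted. Outlier spots (163 on the knockout-labelled array, 119 on the wild-type-labelled array) were left out, spots of a probe averaged, and the brightest probe stood for a gene. RefSeq accessions named 28330 of 55677 probes (50.9%) through a GRCm38.p6 table used for names and gene order. A gene above background on 1 array has a bound. Every member could be named; of other ciliary genes the 3 highest, the 3 lowest and those 2-fold apart follow a fixed rule, as do the highest and lowest of each marker list, and further ones are examples chosen after their values were seen. The members and lists were chosen with earlier results of these data known. Alternatives were median centring, quantile and loess normalization, normexp (offset 50), the authors' table, means over probes and filters on dim genes. Python 3.11.15, R 4.3.3 and limma 3.58.1 were used. The steps were tested on simulated data with the same noise at every signal level. No simulated gene was above background on 1 array only, so the wider scatter of dim probes and the bounds were not covered.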

Additional observations from a re-analysis of the deposited data

How the results depend on the processing

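No member was 2-fold apart under any alternative run. Centring each array on its median moves every difference up by 0.03, and the 9 members at least 1.2-fold lower became 5. These were Ift43, Tctn2, Tmem67, Bbs5 and Tulp1 (9.43% beside 8.38% of all genes). The 9 became 7 (13.2%) with loess, beside 8.65% of all genes, and with normexp, beside 4.91%. They became 8 (15.1%) with means over probes, beside 10.2%, and stayed 9 (17.0%) with quantile normalization, beside 9.03%. The members' median stayed between -0.10 and -0.05, and was below the median of all genes by 0.03 to 0.08 under each alternative; no scaling moved the median of all genes by over 0.1. Of 318 recomputed differences of single members, 9 moved by more than the repeated-spot SD, and 9 in 5 members that were nearly level changed sign. The 318 include those from the authors' table, which could not move. Ift74 went to -0.51 and Kif3b to -0.43 with the mean over probes. The normexp setting used median signals, since the scanner files used here hold no mean-signal column.

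Counts over all genes depended on dim spots. Against 251 higher and 218 lower at 2-fold, 472 and 510 at 1.5-fold, and 1252 and 1548 at 1.2-fold, normexp gave 120 and 45, 266 and 168, and 737 and 782. No filter gave 511 and 600, 1041 and 1273, and 2165 and 2716. A mean log2 signal of 0 or more, chosen after seeing the data, gave 81 and 19, 155 and 56, and 390 and 309, by construction from fewer genes. Genes above background on both arrays only gave 160 and 94 at 2-fold and 293 lower at 1.5-fold, since bounds drop out. The cause was not tested beyond this. No paired analysis was possible because a single array stands for either label.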
